A study of Mus musculus with 10 samples.

Results

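The genes described here encode 9 enzymes of serine synthesis and folate one-carbon metabolism in mouse CD8+ T cells: Phgdh, Psat1, Psph, Shmt1, Shmt2, Mthfd1, Mthfd2, Mthfd1l and Tyms. They are the rows of the deposited expression table that carry these gene names. Each name had 1 row, and all 9 had a mean FPKM of 0.5 or more, the minimum for testing, so they are 9 of 57825 genes listed and 9 of 15710 tested. FPKM counts the fragments of a gene per unit of its length, relative to all fragments of that sample. The study compared splenic CD8+ T cells that shared a culture with 4T1, a mammary carcinoma line of the mouse, with and without sodium acetate (NaAc), to ask what acetate does to CD8+ T cells in the presence of tumor cells. RNA was taken from purified CD8+ T cells, with 5 samples per group.

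CD8+ T cells in the CD8+4T1 group were activated for 12 h on plate-bound anti-CD3 with IL-2 and anti-CD28 and then shared a culture with 4T1 cells for 48 h. In the CD8+4T1+NaAc group, the T cells received 5 mM sodium acetate for 24 h between activation and co-culture, and the sample labels place both groups at day 3. Per the methods, CD8+ T cells were isolated with antibodies and magnetic beads from spleens of female Balb/c mice, the mice of the study being 7 to 8 weeks old, and how the T cells were purified again after co-culture is not described. Activation, co-culture and 4T1 cells were common to both groups, so acetate was not measured here on CD8+ T cells without 4T1 cells. Neither the labels nor the methods say whether the 5 samples of a group came from separate mice or separate cultures, so the p-values measure only the spread between these samples, which may be technical. No batch was given.

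In serine synthesis, PHGDH oxidizes the glycolytic intermediate 3-phosphoglycerate, PSAT1 transfers an amino group from glutamate to the product, and PSPH removes the phosphate to give serine. Serine hydroxymethyltransferases then move a carbon from serine to tetrahydrofolate, SHMT2 in mitochondria and SHMT1 in the cytosol. MTHFD2 and MTHFD1L carry that carbon to formate inside mitochondria, MTHFD1 takes formate back into folate in the cytosol, and TYMS uses the carbon to make thymidylate for DNA. Activated T cells are known to raise this pathway as they begin to divide, and several of its genes are known targets of the transcription factor ATF4.

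Among the 9 genes, transcripts of the mitochondrial members Shmt2, Mthfd2 and Mthfd1l and of Psat1 were lower with acetate. Those of the other cytosolic enzymes and of Tyms did not pass the test. The falls of Mthfd2 and Mthfd1l were called under each scaling of the samples that was tried, while that of Psat1 was not after rescaling to the same total FPKM (-0.20, limma adjusted p = 0.115), and those of Psat1 (-0.18, limma adjusted p = 0.109) and Shmt2 (-0.18, limma adjusted p = 0.0626) were not with scaling to T cell markers. Of the 9 genes, 4 fell (Mthfd2, Mthfd1l, Shmt2 and Psat1), 0 rose and 5 were not called at a limma adjusted p under 0.05 over all genes tested. Across all tested genes, 36.5% were called in either direction and 19% were called lower. The median log2 fold change of the 9 genes was -0.10, beside -0.02 over all genes tested. The same 4 genes were those whose CD8+4T1 and CD8+4T1+NaAc samples did not overlap, and 26.4% of all tested genes had no overlap. All 9 genes average above 5 FPKM, and of the 7800 genes that do, 47.9% were called, 31.7% were called lower, 32.6% had no overlap and the median was -0.08. Read against genes of that level, the count of calls and the median of the 9 are near the background. With acetate, all 3 mitochondrial members (Shmt2, Mthfd2 and Mthfd1l) were among the 4 called.

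The windows around the RefSeq transcription starts of the 4 genes that fell are shown first, to set their letters side by side before the values. Each runs from 250 bases before to 50 bases after the start in GRCm38.p6, 5′ to 3′ on the strand of the gene, and capitals mark CCAAT or its reverse complement ATTGG. The window of Mthfd2 is chr6:83317555-83317854 (minus strand), that of Psat1 is the upstream of 2 entries at chr19:15925010-15925309 (minus strand), that of Shmt2 is chr10:127522395-127522694 (minus strand) and that of Mthfd1l is chr10:3972825-3973124 (plus strand).
Mthfd2: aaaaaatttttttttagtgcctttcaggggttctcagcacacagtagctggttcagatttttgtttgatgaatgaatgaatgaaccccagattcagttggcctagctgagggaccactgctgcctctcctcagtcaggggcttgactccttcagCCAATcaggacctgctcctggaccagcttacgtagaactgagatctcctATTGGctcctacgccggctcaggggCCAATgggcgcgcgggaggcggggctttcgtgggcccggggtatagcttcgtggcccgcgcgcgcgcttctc
Psat1: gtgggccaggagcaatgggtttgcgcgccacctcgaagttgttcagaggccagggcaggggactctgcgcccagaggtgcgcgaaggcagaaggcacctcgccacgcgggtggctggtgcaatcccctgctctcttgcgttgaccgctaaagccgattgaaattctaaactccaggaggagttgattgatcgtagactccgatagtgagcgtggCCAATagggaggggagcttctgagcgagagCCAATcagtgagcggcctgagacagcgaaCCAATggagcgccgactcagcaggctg
Shmt2: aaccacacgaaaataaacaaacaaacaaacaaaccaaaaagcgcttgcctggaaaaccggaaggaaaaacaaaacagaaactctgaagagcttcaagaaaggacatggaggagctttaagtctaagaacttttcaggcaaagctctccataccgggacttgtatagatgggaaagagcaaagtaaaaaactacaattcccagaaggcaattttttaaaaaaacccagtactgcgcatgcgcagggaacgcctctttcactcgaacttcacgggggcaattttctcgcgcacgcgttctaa
Mthfd1l: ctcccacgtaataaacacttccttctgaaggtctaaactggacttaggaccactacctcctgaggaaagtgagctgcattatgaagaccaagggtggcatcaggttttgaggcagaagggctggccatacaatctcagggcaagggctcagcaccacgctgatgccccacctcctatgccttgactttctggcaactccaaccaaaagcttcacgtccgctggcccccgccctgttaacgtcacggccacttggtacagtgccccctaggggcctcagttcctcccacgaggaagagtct

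Mthfd2 and Psat1 each held 3 copies of the box, with those of Mthfd2 at -96, -47 and -22 and those of Psat1 at -36, -6 and 24 from the start. Shmt2 and Mthfd1l held none, so these letters did not separate the genes that fell from those that did not. Among the 9 genes, 6 had at least 1 CCAAT on either strand, beside 41.1% of 27025 genes with a RefSeq window of this length. The genes not called included Phgdh and Psph with 2 copies each and Shmt1 and Mthfd1 with 1 each.

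The same windows were searched on both strands for 5 further motifs. TGATGNAA, a core of the amino acid response element to which ATF4 binds, was in none of the 10 windows of the 9 genes and in 4.51% of genes. The cAMP response element TGACGTCA (2.03% of genes) and the E2F-type motifs TTTGGCGC (0.585%) and TTTCGCGC (0.374%) were also in none of them, and the E-box CACGTG (8.09%) was in that of Tyms alone, at -61. No motif overlaps another in these windows, and an absent motif says only that these letters are not within these 300 bases.

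The first enzyme of serine synthesis, Phgdh (ENSMUSG00000053398, chr3:98220486-98247306 in the deposited positions, minus strand), had 65.2, 75.1, 67.8, 72.9 and 81.5 FPKM in CD8+4T1 replicates 1 to 5. With acetate it had 54.2, 96.1, 78.3, 82.9 and 84.1 FPKM. Acetate replicate 1 was below every control sample and acetate replicates 2, 4 and 5 were above every control sample, and acetate replicate 3 lay within the control range, so the groups overlapped also without replicate 1. The means were 72.5 ± 6.36 and 79.1 ± 15.4 FPKM (SD, n = 5 each). The log2 fold change was 0.11 (SE 0.13, 95% interval -0.19 to 0.40, limma adjusted p = 0.576). Without acetate replicate 1 the difference was 0.24 and passed the test (limma adjusted p = 0.0298), and without both samples numbered 1 it was 0.20 and did not (limma adjusted p = 0.0566).

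Phgdh has processed pseudogenes, and reads can be split between them and the gene. The table lists 23 of them, 13 above 0, which held 13.5 to 23.0% of the fragments of Phgdh and pseudogenes together. Their median share was 20.9% in CD8+4T1 and 17.0% in CD8+4T1+NaAc samples. With these fragments added to Phgdh, the log2 fold change was 0.03 in place of 0.11, so the value of Phgdh depends on how those reads are assigned.

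Psat1 (ENSMUSG00000024640, chr19:15882042-15924701, minus strand), the aminotransferase of serine synthesis, had 64.6, 69.3, 67.7, 60.9 and 72.9 FPKM in CD8+4T1 replicates 1 to 5. The acetate samples had 40.4, 59.6, 51.2, 53.5 and 56.2 FPKM. All 5 lay below the lowest control sample, replicate 2 by the smallest margin. Psat1 averaged 67.1 ± 4.56 FPKM without and 52.2 ± 7.30 FPKM with acetate (SD, n = 5 each) and fell by 22.3%. Its log2 fold change was -0.37 (SE 0.097, 95% interval -0.59 to -0.16, limma adjusted p = 0.0121). Rescaling to the same total and scaling to T cell markers ended this call, and median-ratio scaling did not (-0.39, limma adjusted p = 0.0104).

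Psph (ENSMUSG00000029446, chr5:129842622-129864513, minus strand), which encodes the last enzyme of the path, had 16.7 to 19.1 FPKM in the CD8+4T1 samples. Acetate samples 2 to 5 ranged from 18.2 to 19.9 FPKM and replicate 1 had 11.1 FPKM. The averages of 18.2 ± 0.958 and 17.4 ± 3.59 FPKM (SD, n = 5 each) therefore differed mainly through 1 sample. The log2 fold change was -0.09 (SE 0.14, 95% interval -0.40 to 0.22, limma adjusted p = 0.660), and it was 0.064 without acetate replicate 1. Psph overlaps Cct6a on the opposite strand over 452 bases, and since the strand setting of the counting was not given, reads of both genes in that stretch cannot be told apart.

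The next step uses serine. Shmt2 (ENSMUSG00000025403, chr10:127352992-127358313, minus strand), the mitochondrial hydroxymethyltransferase, was the highest of the 9 genes, with 117.9, 109.9, 109.7, 112.1 and 111.8 FPKM in CD8+4T1 replicates 1 to 5. Acetate replicates 1 to 5 had 75.8, 97.0, 84.9, 87.1 and 89.5 FPKM. The highest acetate sample stayed below the lowest control sample. The mean moved from 112.3 ± 3.33 to 86.8 ± 7.69 FPKM (SD, n = 5 each), and Shmt2 fell by 22.6%. The log2 fold change was -0.37 (SE 0.063, 95% interval -0.51 to -0.24, limma adjusted p = 0.000970), a call that scaling to T cell markers ended.

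Shmt1 (ENSMUSG00000020534, chr11:60678930-60702544, minus strand), the cytosolic isozyme, had 13.8, 16.4, 15.7, 15.0 and 15.4 FPKM in CD8+4T1 samples and 12.004, 15.5, 13.7, 15.2 and 14.7 FPKM with acetate. The groups overlapped, and replicate 1 was the lowest of each. The means were 15.3 ± 0.987 and 14.2 ± 1.42 FPKM (SD, n = 5 each). Its log2 fold change was -0.10 (SE 0.076, 95% interval -0.27 to 0.064, limma adjusted p = 0.316). Shmt1 overlaps Smcr8 on the opposite strand over 184 bases.

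The largest falls were in the mitochondrial enzymes after SHMT2. Mthfd2 (ENSMUSG00000005667, chr6:83282673-83302890, minus strand), the mitochondrial methylenetetrahydrofolate dehydrogenase and cyclohydrolase, had 73.0, 62.8, 64.3, 61.2 and 63.7 FPKM in CD8+4T1 replicates 1 to 5. With acetate it had 38.4, 48.6, 47.5, 46.9 and 48.2 FPKM. Replicate 1 stood apart in both groups, as the highest control and as the lowest acetate sample, while the other 4 samples ranged from 61.2 to 64.3 FPKM without and from 46.9 to 48.6 FPKM with acetate. The means were 65.0 ± 4.64 and 45.9 ± 4.25 FPKM (SD, n = 5 each), and Mthfd2 fell by 29.3%. The log2 fold change was -0.50 (SE 0.075, 95% interval -0.67 to -0.34, limma adjusted p = 0.000473).

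Mthfd1l (ENSMUSG00000040675, chr10:3923118-4117081, plus strand), the mitochondrial formate-tetrahydrofolate ligase, had 20.9, 22.3, 21.7, 21.2 and 24.3 FPKM in CD8+4T1 replicates 1 to 5. The values with acetate were 11.3, 16.7, 16.6, 15.3 and 18.3 FPKM. No acetate sample reached the lowest control sample. Between means of 22.1 ± 1.33 and 15.6 ± 2.66 FPKM (SD, n = 5 each), Mthfd1l fell by 29.2%. The log2 fold change was -0.51 (SE 0.11, 95% interval -0.76 to -0.26, limma adjusted p = 0.00501).

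Mthfd1 (ENSMUSG00000021048, chr12:76302072-76366577, plus strand), the trifunctional enzyme of the cytosol, had 23.8, 23.4, 22.6, 22.5 and 24.7 FPKM in CD8+4T1 samples. With acetate it had 18.6, 25.3, 22.3, 22.1 and 21.7 FPKM. Acetate replicate 2 was the highest and acetate replicate 1 the lowest of all 10 samples. The means of 23.4 ± 0.881 and 22.0 ± 2.39 FPKM (SD, n = 5 each) gave a log2 fold change of -0.09 (SE 0.073, 95% interval -0.25 to 0.065, limma adjusted p = 0.341).

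Tyms (ENSMUSG00000025747, chr5:30263200-30278615, minus strand), the thymidylate synthase gene, was the lowest of the 9, with 7.82, 9.26, 8.33, 9.05 and 9.36 FPKM in CD8+4T1 samples. With acetate it had 7.44, 9.22, 9.75, 8.67 and 8.69 FPKM, so that the highest and the lowest value were both acetate samples. The means were 8.76 ± 0.663 and 8.75 ± 0.857 FPKM (SD, n = 5 each). Its log2 fold change was -0.0039 (SE 0.080, 95% interval -0.18 to 0.17, limma adjusted p = 0.975).

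**Figure D1:**
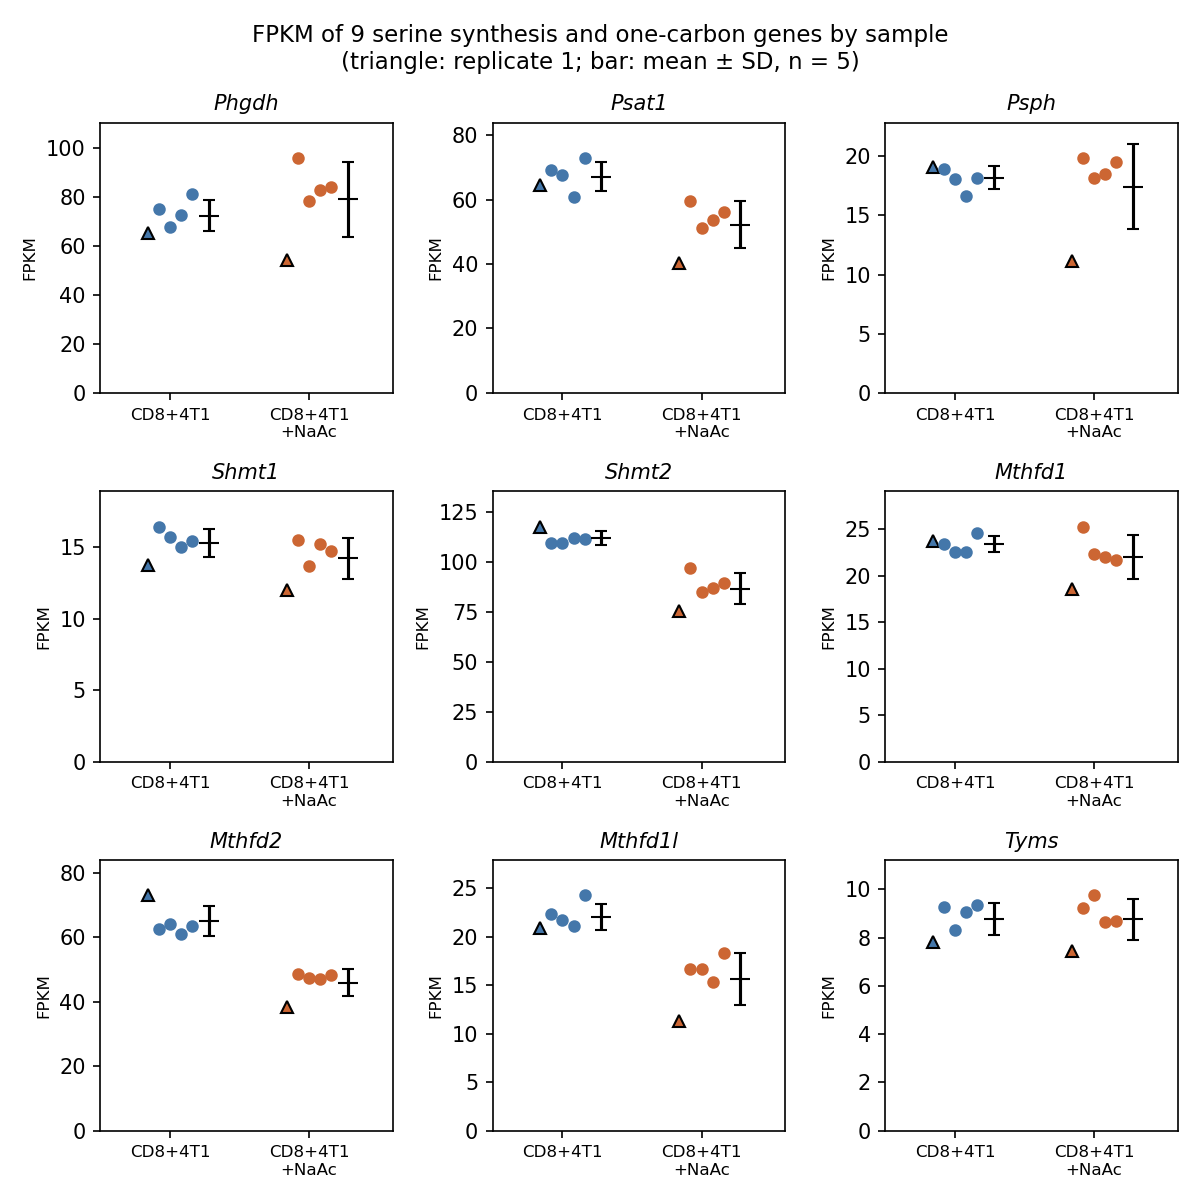
FPKM of each of the 9 genes in the 5 CD8+4T1 samples (blue) and the 5 CD8+4T1+NaAc samples (orange), on linear axes from 0, with replicate 1 as a triangle and bars giving the mean ± SD. The groups separate for Psat1, Shmt2, Mthfd2 and Mthfd1l and overlap for the others, and acetate replicate 1 is the lowest acetate sample in all 9 panels.

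Acetate replicate 1 was the lowest of its group for all 9 genes, and it also listed the fewest genes above 0 of all samples (20233). Leaving it out kept all 4 falls, with log2 fold changes of -0.44 for Mthfd2, -0.40 for Mthfd1l, -0.33 for Shmt2 and -0.28 for Psat1. Fragments counted per sample ranged from 775 for Tyms to 6124 for Shmt2.

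How the samples are scaled to one another bears on each of these differences. The listed genes held 95.5 to 97.9% of the fragments that the FPKM refer to in CD8+4T1 samples and 89.8 to 92.1% in CD8+4T1+NaAc samples, without overlap, and their FPKM summed to 310965 to 335151 in CD8+4T1 samples and to 282995 to 295928 in CD8+4T1+NaAc samples. When these sums were made equal, the all-gene median of the log2 fold change was 0.16 in place of -0.02 and 78.0% of the called genes were higher with acetate, in place of 48.1%. Under that scaling Mthfd2 (-0.32), Mthfd1l (-0.34) and Shmt2 (-0.20) remained called and Psat1 was not, as given above. Scaled to 15 T cell marker genes, the all-gene median was 0.17 and 81.6% of the called genes were higher. Mthfd2 (-0.31, limma adjusted p = 0.00990) and Mthfd1l (-0.32, limma adjusted p = 0.0144) remained called there, whereas Shmt2 and Psat1 were not. The directions of Psph, Shmt1, Mthfd1 and Tyms, which were never called, turned positive under both of these scalings. Phgdh, at 0.11 as deposited, was 0.28 after rescaling to the same total (limma adjusted p = 0.0931). With scaling to T cell markers it was 0.29 (limma adjusted p = 0.0560), and it was not called under either. With median-ratio scaling, in contrast, the all-gene median was -0.03 and 45.1% of the called genes were higher. The same 4 of the 9 genes were called lower there.

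**Figure D2:**
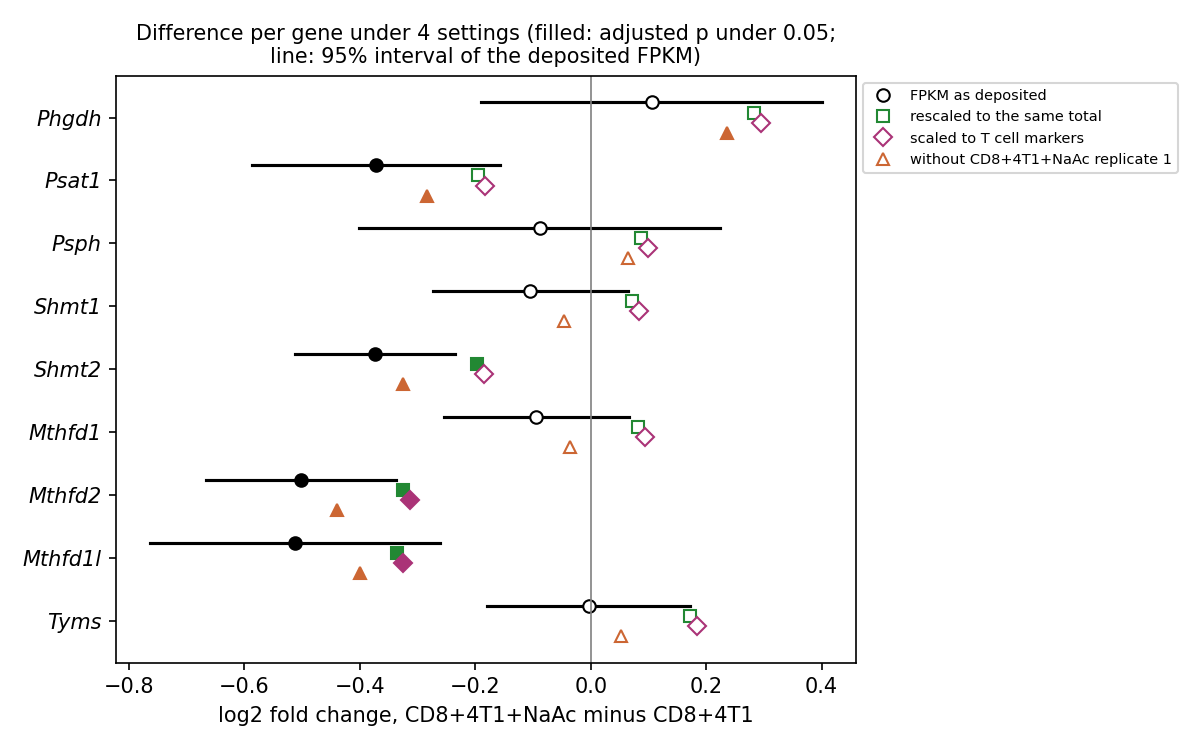
Log2 fold change (CD8+4T1+NaAc minus CD8+4T1) of each gene from the FPKM as deposited with its 95% interval, after rescaling each sample to the same total, after scaling to T cell markers, and without acetate replicate 1. Mthfd2 and Mthfd1l are filled, that is called at an adjusted p under 0.05, under all 4, Shmt2 under 3 and Psat1 under 2.

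Ratios of 2 genes within a sample do not depend on that scaling, and 6 were compared by an exact permutation test, two-sided, for which 5 against 5 samples allow a p of 0.00794 at the smallest. The log2 ratio of mitochondrial Shmt2 to cytosolic Shmt1 was 3.09, 2.73, 2.79, 2.90 and 2.85 in CD8+4T1 samples and 2.65, 2.64, 2.63, 2.51 and 2.60 with acetate. Every acetate sample was below every control sample. In linear terms Shmt2 had 6.66 to 8.51 times the FPKM of Shmt1 without and 5.69 to 6.27 times with acetate. The difference was -0.27 on the log2 scale (exact permutation p = 0.00794, 0.0119 after Benjamini-Hochberg adjustment over the 6 ratios).

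The log2 ratio of mitochondrial Mthfd2 to cytosolic Mthfd1 was 1.61, 1.42, 1.504, 1.44 and 1.37 in CD8+4T1 samples and 1.05, 0.94, 1.09, 1.09 and 1.15 with acetate. The groups did not overlap. The difference was -0.41 (exact permutation p = 0.00794, adjusted 0.0119), from a ratio of 2.58 to 3.06 down to 1.92 to 2.21. For Mthfd1l to Mthfd1 the log2 ratio went from -0.08 ± 0.060 to -0.50 ± 0.18 (SD, n = 5 each), also without overlap, a difference of -0.42 with the same exact p-values. Relative to their cytosolic counterparts, all 3 mitochondrial genes were thus lower with acetate. These 3 genes, like Psat1 below, already separated the groups by themselves, as 26.4% of all tested genes did. Mthfd1 is also the denominator for both Mthfd2 and Mthfd1l. The ratios are therefore not independent of the calls of single genes. How often ratios of other gene pairs separate the groups was not tested.

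Within serine synthesis, the log2 ratio of Psat1 to Phgdh was -0.01, -0.12, -0.0015, -0.26 and -0.16 in CD8+4T1 samples and -0.42, -0.69, -0.61, -0.63 and -0.58 with acetate. Every acetate sample was below every control sample. The difference was -0.48 (exact permutation p = 0.00794, adjusted 0.0119), and -0.40 with the pseudogene fragments added to Phgdh, an alternative chosen after seeing the data. The Psph to Phgdh ratio overlapped between the groups, with a difference of -0.19 (exact permutation p = 0.0635, adjusted 0.0762). With the pseudogene fragments added, that difference was -0.12 (adjusted exact p = 0.238). The ratio of Tyms to Shmt1 had a difference of 0.10 (exact permutation p = 0.183, adjusted 0.183), with overlapping groups.

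**Figure D3:**
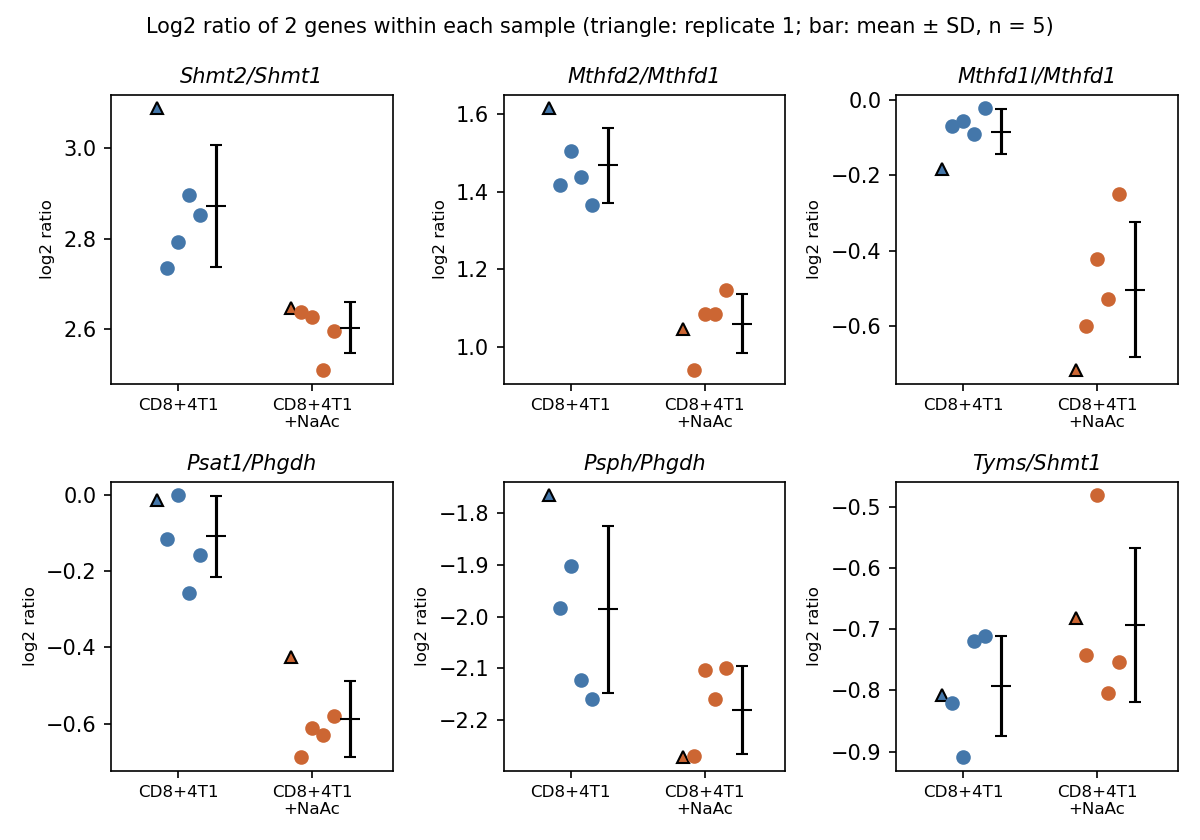
Log2 ratio of 2 genes within each sample for the 6 pairs, by group, with replicate 1 as a triangle and bars giving the mean ± SD; the axes do not start at 0. Shmt2/Shmt1, Mthfd2/Mthfd1, Mthfd1l/Mthfd1 and Psat1/Phgdh separate the groups without overlap, and Psph/Phgdh and Tyms/Shmt1 do not.

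The order of the levels differed little between the groups. Without acetate, Shmt2 stood above all other 8 genes, followed by Phgdh, Psat1 and Mthfd2, whose ranges overlapped from each to the next, then by Mthfd1 and Mthfd1l, which also overlapped, and last by Psph, Shmt1 and Tyms, each below the one before. With acetate, the range of Shmt2 (75.8 to 97.0 FPKM) overlapped that of Phgdh (54.2 to 96.1 FPKM), and Mthfd1, Psph, Mthfd1l and Shmt1 overlapped as a chain, with Tyms still below all others. The summed FPKM of the 9 genes, as deposited, was 391.6 to 421.7 without and 269.2 (replicate 1) to 387.9 with acetate. The sum over all listed genes was lower with acetate as well, at 282995 to 295928 beside 310965 to 335151 FPKM. The sum of the 9 genes is not corrected for this, so its separation of the groups is not read as a fall of the whole set. FPKM depends on the listed gene length, which was 1.20 times (Mthfd1l) to 2.50 times (Psph) the longest coding transcript in GENCODE M21, and 1.93 times for Tyms. Differences in level between genes therefore carry that uncertainty, which differences between groups do not.

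The genes that fell were close to one another over the 10 samples. The Pearson correlation of log2(FPKM + 0.1) was 0.973 between Shmt2 and Mthfd2, 0.961 between Psat1 and Mthfd1l and 0.889 between Psat1 and Mthfd2, while Phgdh gave 0.0085 with Mthfd2 and 0.11 with Shmt2. The group difference enters these values. For deviations from the group means, the correlation was 0.841 between Shmt2 and Mthfd2, 0.899 between Psat1 and Mthfd1l and 0.696 between Psat1 and Mthfd2, and Phgdh gave 0.592 with Mthfd2, 0.801 with Shmt2 and 0.926 with Psat1. Acetate replicate 1 weighs in these values, and without both samples numbered 1 they were 0.618, 0.656 and 0.656 for the same pairs and 0.482, 0.842 and 0.774 for Phgdh. Some pairs of a gene that fell and a gene that was not called were as close in these deviations. They gave 0.909 for Psat1 and Psph, 0.894 for Shmt2 and Mthfd1 and 0.880 for Mthfd2 and Psph. Others were lower, such as 0.384 for Mthfd2 and Shmt1. Without both samples numbered 1, Mthfd2 and Psph gave 0.920. Closeness within the groups was thus not particular to the genes that fell. These are descriptions over samples, in which genes of 1 sample share a library. Among 7052 protein-coding genes averaging 5 FPKM or more, the closest patterns were Gpn3 (0.982) and Cth (0.980) for Mthfd2, Cnbp (0.987) and Ltv1 (0.983) for Mthfd1l, Fam216a and Gosr1 (0.976 each) for Shmt2, and Gys1 (0.974) and Blmh (0.971) for Psat1. For the genes that were not called they were Mrpl43 (0.951) and Wdr45b (0.949) for Phgdh, Eef1akmt1 (0.982) and Gtf2f2 (0.975) for Psph, Isg15 and Chchd5 (0.952 each) for Shmt1, Man1b1 (0.928) for Mthfd1, and Slc37a4 (0.956) and Ass1 (0.931) for Tyms. These values include the group difference and were picked as the highest among 7052 candidates, so no link between genes is read from them.

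The neighbours of these 9 genes in metabolism did not move one way. Their counts are to be read beside the shares over all genes tested, of which 36.5% were called and 19% were called lower. Of 16 further genes of folate uptake, reduction and one-carbon transfer, 11 were tested, 3 rose and 2 fell, with a median log2 fold change of 0.01. Ggh, which trims the glutamate tail of folates, rose by 0.82 (limma adjusted p = 0.00150), the folate carrier gene Slc19a1 rose by 0.30 (0.0191) and Fpgs, which adds that tail, rose by 0.20 (0.0369). Mtfmt, which formylates the mitochondrial initiator tRNA with a one-carbon unit, fell by 0.29 on the log2 scale (limma adjusted p = 0.00655). Gart, a purine enzyme that takes one-carbon units from folate, fell by 0.20 on that scale (limma adjusted p = 0.00909) and is named here after its values were seen. After rescaling to the same total, 5 of the 11 rose and 0 fell.

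Of 14 tested genes of glycine cleavage, serine use and serine transport, 2 rose and 3 fell (median -0.04). Slc1a5, a carrier of glutamine and other small neutral amino acids including serine, went from 100.2 to 70.4 FPKM, a log2 fold change of -0.51 (limma adjusted p = 0.000148). Sptlc1, a subunit of the enzyme that joins serine to palmitoyl-CoA, fell by 0.25 on that scale (limma adjusted p = 0.00719). The glycine cleavage genes Gcsh (0.61, limma adjusted p = 0.00386) and Gldc (0.48, limma adjusted p = 0.00384) were higher with acetate. After rescaling to the same total, 4 rose and 1 fell.

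Among 12 tested genes of the methionine cycle and transsulfuration, 3 rose and 1 fell (median 0.06). The one that fell was Cth, which makes cysteine from cystathionine. It went from 33.8 to 20.4 FPKM, a log2 fold change of -0.74 (limma adjusted p = 0.000337), and was also among the patterns closest to that of Mthfd2. The 3 that rose were Mtap (0.59), Amd1 (0.33) and Ahcyl2 (0.28). The counts were 5 higher and 1 lower after rescaling to the same total.

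Thymidylate supply and S phase genes, listed beside Tyms, were split, with 3 of 19 higher and 3 lower (median 0.04). Dctd (0.70), Cdt1 (0.54) and Ccne1 (0.46) rose and Gins1 (-0.50) was the one with the largest fall. The split depends on scaling, with 10 higher and 1 lower after rescaling to the same total.

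Of 15 genes of the ATF4 axis, which holds Atf4, other genes of the integrated stress response and known targets outside the 9 enzymes, 9 fell and 3 rose (median -0.42), and in 11 the groups did not overlap. Over all genes tested, 36.5% were called, 19% were called lower and 26.4% had no overlap. Among genes averaging 5 FPKM or more, these shares were 47.9%, 31.7% and 32.6%. Stc2, a secreted glycoprotein gene, went from 10.1 to 3.16 FPKM (log2 fold change -1.65, limma adjusted p = 6.78e-07), and Atf5, a related transcription factor gene, fell by 1.04 on that scale. Cebpb, a transcription factor gene, and Slc7a11, the cystine carrier gene, rose by 1.57 and 1.32. Atf4 itself averaged 152.9 and 138.8 FPKM (a difference of -0.15 in log2, limma adjusted p = 0.285), a level of transcript and not of protein. After rescaling to the same total, 8 fell and 3 rose, and without acetate replicate 1 the counts were again 9 and 3.

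**Figure D4:**
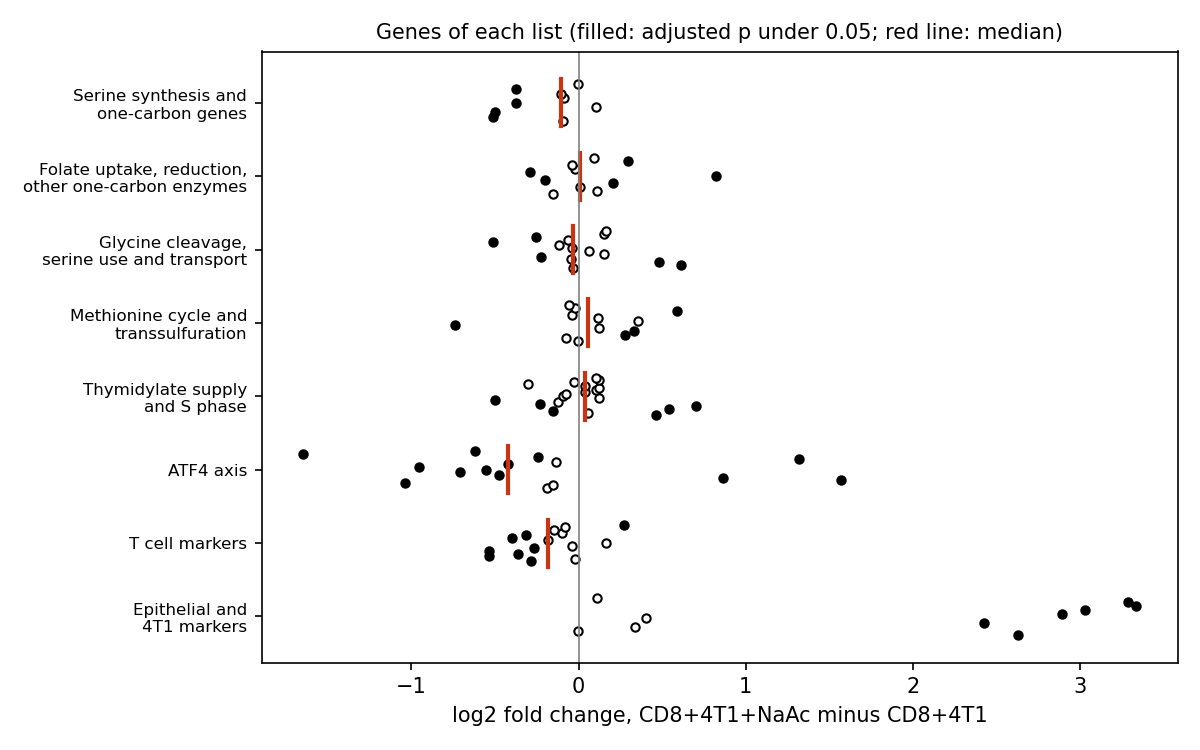
Log2 fold change (CD8+4T1+NaAc minus CD8+4T1) of the tested genes of each list, filled where the adjusted p was under 0.05, with the median of each list as a red line, other than for epithelial and 4T1 markers, some of which were tested only because they are high with acetate. The 9 serine synthesis and one-carbon genes have a median of -0.10 and the ATF4 axis one of -0.42. The myeloid list, in which S100a8 was also tested only because it is high with acetate, is not drawn, and nothing is read from its median.

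Some markers of other cells, mainly epithelial ones, were higher with acetate, and others were not. The summed FPKM of 20 epithelial and 4T1 markers was 22.9 to 34.3 in CD8+4T1 samples and 82.8 to 193.0 in CD8+4T1+NaAc samples. Krt8, an epithelial keratin gene, went from 3.42 to 34.2 FPKM (limma adjusted p = 8.10e-05) and Lcn2 from 3.99 to 40.2 FPKM (limma adjusted p = 5.33e-05). Epcam, Cldn7, Dsp and Perp of the same list were not called (limma adjusted p = 0.305, 0.994, 0.110 and 0.441). Perp averaged 12.8 and 13.9 FPKM. Krt5, Krt19 and Cdh3, below the minimum for testing, averaged lower with acetate. Of the 20, 10 reached the minimum for testing, among them Krt7 (0.143 and 1.79 FPKM), Cldn3 (0.38 and 2.66 FPKM) and Ehf only through the acetate group, so no count or median of calls is read from this list. The 15 T cell markers summed to 1586 to 1811 and 1290 to 1693 FPKM, with 7 lower, 1 higher and 7 not called. After rescaling to the same total, 5 were lower and 3 higher, with a median of -0.003 in place of -0.18. Cd8a averaged 78.6 and 76.5 FPKM (a difference of -0.04 in log2, limma adjusted p = 0.559), Cd3d fell by 0.54 on the log2 scale, and Cd4, which CD8+ T cells should lack, went from 0.54 to 1.60 FPKM. T cell markers were thus high in both groups, and both, the acetate samples more so, held epithelial keratin transcripts that pure CD8+ T cells should lack. Of the 7 B cell markers, 2 were tested and 0 called, with sums of 4.33 to 5.27 and 5.32 to 6.61 FPKM and Ms4a1 and Pax5 near 0. Of the 10 myeloid markers, 3 reached the minimum for testing, among them S100a8 only through the acetate group (0.398 and 2.94 FPKM). Lyz2 rose from 0.536 to 1.12 FPKM (log2 fold change 0.96, limma adjusted p = 0.0328). Cd68 was not called (25.8 and 22.8 FPKM, limma adjusted p = 0.133). It made up most of the myeloid sums of 23.6 to 31.1 and 25.7 to 30.4 FPKM, and S100a9 was at 0 in every sample. Of the 7 CD4 T and NK cell markers, 2 were tested and Cd4 alone was called, and Klra4 was at 0 in every sample.

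The part of 4T1 RNA in the levels of the 9 enzyme genes was not tested. As a description over 10 samples, the correlation between deviations from the group means of each gene and of the mean of the 10 tested 4T1 markers was 0.56 for Phgdh, 0.54 for Mthfd1, 0.56 for Tyms, 0.36 for Shmt2, 0.31 for Psat1, 0.27 for Shmt1, 0.25 for Mthfd1l, 0.17 for Psph and 0.03 for Mthfd2. Without acetate replicate 1 it was 0.68 for Phgdh, 0.56 for Mthfd1, 0.54 for Tyms, 0.25 for Shmt2, 0.16 for Psat1, 0.11 for Shmt1, 0.024 for Mthfd1l, -0.35 for Psph and -0.33 for Mthfd2. The marker mean includes Krt7, Cldn3 and Ehf, which reached the minimum for testing only through the acetate group. No conclusion is therefore drawn from these correlations. In bulk RNA, fewer cells of a type and less RNA per cell cannot be told apart.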

How the data were processed

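RNA of purified CD8+ T cells was sequenced in 10 samples, 5 per group. The authors deposited FPKM, 1 column per sample (0 columns without a sample), and the gene length as an other, unnormalized column beside it. The submitters' processing notes name fastp, HISAT2 2.0.5, StringTie 1.3.3b and featureCounts 1.5.0-p3, and the authors tested groups with DESeq2. Genome build, annotation and strand setting are not given in the sources used here, and 1467 of 52073 shared genes have the start and end they have in GRCm38, so gene positions are as deposited.

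Multiplied by gene length, 100% of FPKM values gave whole reads (within 0.1), at 16306400 to 18853700 fragments per sample, of which the listed genes hold 95.5 to 97.9% in CD8+4T1 and 89.8 to 92.1% in CD8+4T1+NaAc samples. A limma 3.58.1 fit (R 4.3.3), with variance trend and robust moderation, was run on log2(FPKM + 0.1) for all genes averaging 0.5 FPKM or more, and calls were made at a p under 0.05 after Benjamini-Hochberg adjustment over all of them. A fold change on this scale understates that of low genes. Ratios were compared by exact permutation over samples. On simulated data, the fit called 46.5% of 99 genes changed by 0.5 in log2 and 88.8% of 98 changed by 1. It called 9 of the 15330 unchanged genes beside them, and 1 of 15545 genes with none changed. In the measured samples 36.5% of tested genes were called, a far larger share than was changed in the simulation. The simulated rates are therefore not read as the power or the false-call rate of the comparison made here. Figures were drawn with matplotlib 3.10.9.

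The 9 genes were selected by name, and they and the lists were chosen with earlier results of these data known. Named genes are the 9 enzymes, up to 4 called genes per list with the largest absolute log2 fold change, Cd8a, Cd3d, Krt8, Lcn2, Atf4, and the 2 closest patterns per gene; some items under this rule are not reported here. Promoter windows are from RefSeq (GRCm38.p6) and matched 9 of 9 genes. Alternatives were other pseudocounts, filters, thresholds and scalings, voom on the recovered fragments, sample weights, the replicate number as a block, and leaving out samples.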

Additional observations from a re-analysis of the deposited data

Results flagged for a closer look

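Among 30 sets of 5 samples checked (9 genes and 6 ratios in both groups), 3 held a sample far from the others, judged by its gap to the nearest sample as a share of the range of the group, with 0.71 as the critical value; chance gives about 1.5. Psph in CD8+4T1+NaAc replicate 1 was the lowest of its group with a gap of 0.803 of the range (11.1 FPKM, the others from 18.2 to 19.9 FPKM). Mthfd2 in the same sample was also the lowest, with a gap of 0.835 (38.4 FPKM, the others from 46.9 to 48.6 FPKM). Mthfd2 in CD8+4T1 replicate 1 was the highest of its group, with a gap of 0.738 (73.0 FPKM, the others from 61.2 to 64.3 FPKM). Without both samples numbered 1, the log2 fold change of Mthfd2 was -0.40 (limma adjusted p = 5.26e-05).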

How the results depend on the processing

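The falls of Mthfd2 and Mthfd1l kept their direction and their call under every alternative tried, and that of Shmt2 under all but the scaling to T cell markers. That of Psat1 kept them under all but the rescaling to the same total, the scaling to T cell markers and the threshold of 0.01, which ended its call. The count of genes called, 5742, was 3733 of 7800 tested with a mean of at least 5 FPKM (1257 higher and 2476 lower), 3702 at an adjusted p under 0.01, 7594 with sample weights and 4924 to 6930 without 1 replicate. The count of the 9 genes called was 2 with scaling to T cell markers, 3 after rescaling to the same total and at an adjusted p under 0.01, and 4 to 5 without 1 replicate, the 5th being Phgdh without CD8+4T1+NaAc replicate 1. Without 1 replicate the log2 fold changes ranged from -0.52 to -0.44 for Mthfd2, -0.57 to -0.40 for Mthfd1l, -0.42 to -0.33 for Shmt2, -0.42 to -0.28 for Psat1, 0.029 to 0.24 for Phgdh, -0.14 to -0.046 for Shmt1, -0.15 to -0.036 for Mthfd1, -0.14 to 0.064 for Psph and -0.044 to 0.053 for Tyms.

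Reversed directions occurred in genes that were not called. After rescaling to the same total the values were 0.088 for Psph, 0.072 for Shmt1, 0.082 for Mthfd1 and 0.17 for Tyms, and with scaling to T cell markers 0.099, 0.083, 0.094 and 0.18. Sample weights gave 0.028 for Psph and 0.058 for Tyms, voom gave 0.011 for Tyms, and leaving out both samples numbered 1 gave 0.082 for Psph and 0.013 for Tyms. Rescaling to the same total and scaling to T cell markers shift all genes nearly alike, so the reversals under them come with that shift. The cause of the other reversals was not tested.

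The replicate numbers share no stated origin, and deviations of same-numbered samples correlated at 0.037, -0.012, -0.028, 0.069 and 0.0056, so they were not read as pairs. With the replicate block, 5399 genes and the same 4 of the 9 were called (Mthfd2 with limma adjusted p = 0.00719). Under the block, 4 ratios that had passed no longer did (differences as before by construction, -0.27 for Shmt2/Shmt1, -0.41 for Mthfd2/Mthfd1, -0.42 for Mthfd1l/Mthfd1 and -0.48 for Psat1/Phgdh), with an adjusted exact p of 0.0938 each, where the unadjusted p was the smallest that 5 pairs allow. Without 1 replicate the differences ranged from -0.30 to -0.22, -0.43 to -0.37, -0.48 to -0.36 and -0.52 to -0.45 for these, from -0.24 to -0.14 for Psph/Phgdh and from 0.048 to 0.13 for Tyms/Shmt1. Psph/Phgdh passed without CD8+4T1 replicate 4 (-0.23, adjusted exact p = 0.0381) and without CD8+4T1 replicate 5 (-0.24, adjusted exact p = 0.0286).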
